A study of Rattus norvegicus with 9 samples.

Results

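Lysophosphatidic acid (LPA) and sphingosine 1-phosphate (S1P) are lipid mediators that act on G protein-coupled receptors, and 9 genes of their signalling were described here in rat hepatic macrophages: the LPA receptors Lpar1, Lpar2, Lpar5 and Lpar6, the LPA-producing enzyme Enpp2, the S1P receptors S1pr1, S1pr2 and S1pr5, and the S1P-producing kinase Sphk1. The members were chosen by symbol from 18166 genes with 1 symbol in the array's annotation, with earlier results on these rats known. The one measured value in the rule, the highest mean signal among a gene's probesets, decided nothing here because each gene had 1 probeset. All 9 were among the 14014 genes bright enough to be tested. RNA came from hepatic macrophages of male Sprague-Dawley rats, with 1 array per rat and 3 rats per group. Sham rats had the same abdominal operation without a ligature, and the other groups were studied 3 or 10 days after surgery for partial ligation of the portal vein (PPVL). This calibrated narrowing raises portal pressure and serves as a model of portal hypertension, and the labels give neither the rats' age nor the day on which sham rats were studied, and both PPVL groups were set against the same sham rats. The spread over the 3 rats of a group is the only error measured. Each gene's SE pools this spread over all groups and is moderated by that of other genes. It is therefore the same in every comparison and is not the spread of the groups compared alone.

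LPA is made outside cells from lysophosphatidylcholine by autotaxin, the product of Enpp2, and is broken down by membrane lipid phosphatases such as that of Plpp3. S1P is made inside cells when sphingosine, released from ceramide by ceramidases, is phosphorylated by the sphingosine kinases Sphk1 and Sphk2, and it is cleaved irreversibly by the lyase Sgpl1. S1P is high in blood and low in tissues, a gradient that lymphocytes read through S1pr1 when they leave lymphoid organs. In the liver both lipids are known for their actions on stellate cells, endothelium and immune cells.

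Lpar5 was the only one of the 9 genes past the test in any of the 3 comparisons, a call that did not hold under every setting. Its signal at 10 days after PPVL was 51.5% of the sham level, and it lay between the other groups at 3 days. At 3 days 0 of the 9 genes passed limma's moderated test, against 2.86% of all genes tested. An unadjusted p under 0.05 was found for 1 of the 9, and for 2171 of all 14014 genes. At 10 days 1 of the 9 passed, against 0.735% of all genes. There 2 of the 9 had an unadjusted p under 0.05, as did 2271 of the 14014. Between the days 0 of the 9 passed limma's test, against 0.0714% of all genes. Here 2 of the 9 had an unadjusted p under 0.05, as did 1578 of the 14014. The same counts of all genes apply to the unadjusted p of the lists below. The median difference of the 9 genes from sham was 0.03 at 3 days and -0.08 at 10 days on the log2 scale, where the medians of all genes tested were -0.01 and -0.00040.

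The upstream sequences of the LPA receptor that fell and of an LPA receptor whose signal differed the other way at 10 days are shown so that they can be set side by side. Both are the 250 bases before a transcription start in RefSeq's annotation of GRCr8, on the plus strand, at chr4:159558195-159558444 for Lpar5 and chr15:54825860-54826109 for Lpar6. They are written 5′ to 3′, and capitals mark full matches on either strand to AGGAAGT. This is a motif of PU.1, a factor of the macrophage lineage, and of other ETS factors, whose shared core is shorter. Partial matches such as AGGAAG are present in both windows and were not marked. The motifs were chosen with the sequences in view.
Lpar5: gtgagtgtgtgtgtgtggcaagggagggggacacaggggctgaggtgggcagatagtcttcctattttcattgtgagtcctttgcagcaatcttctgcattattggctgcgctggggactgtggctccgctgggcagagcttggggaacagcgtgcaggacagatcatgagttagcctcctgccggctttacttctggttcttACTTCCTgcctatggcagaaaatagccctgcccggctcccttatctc
Lpar6: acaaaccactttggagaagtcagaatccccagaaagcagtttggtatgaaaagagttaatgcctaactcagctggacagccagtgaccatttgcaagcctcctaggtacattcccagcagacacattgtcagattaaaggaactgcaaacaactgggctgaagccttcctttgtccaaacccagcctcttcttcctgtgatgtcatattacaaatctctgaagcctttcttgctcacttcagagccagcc
The Lpar5 window held 1 full match, on the minus strand with its first base 47 bases before the start, and the Lpar6 window held no full match. Of 33469 windows of this length in the table, 7.08% held the motif. Neither window held the AP-1 motif TGANTCA (6.34% of windows) or the E-box CACGTG (5.59%). Windows for 6 of the 9 genes were matched in the table used here, and those of Lpar1, Lpar2 and Enpp2 were not used. The windows of S1pr1, S1pr2, S1pr5 and Sphk1 also held no full match to AGGAAGT, so its absence was not particular to Lpar6. A match describes letters only, and the arrays hold no measure of binding.

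Lpar5 encodes an LPA receptor found on immune cells and sensory neurons. Its log2 signals were 10.57, 10.36 and 10.27 in the sham rats, 10.08, 9.97 and 9.72 in the 3-day rats and 9.42, 9.59 and 9.33 in the 10-day rats. Every sham rat was above every 3-day rat, and every 3-day rat was above every 10-day rat. This falling order without overlap occurred in 0.25% of all genes tested (35 of 14014). That share describes an order already seen in Lpar5 and is not a test. At 10 days the difference from sham was -0.96 ± 0.11 (log2 difference ± SE, n = 3 rats per group; adjusted p = 0.0400 by limma with Benjamini-Hochberg adjustment), with a 95% interval from -1.21 to -0.70, or 1.94-fold lower. It had the smallest p of the 14014 genes at 10 days and the fourth largest fall. Lpar5 was listed with this fall already known from these data, so its p and ranks are no independent evidence. At 3 days the difference was -0.48 ± 0.11 (95% interval -0.73 to -0.22), which did not pass (adjusted p = 0.0590 by limma). From 3 to 10 days it was -0.48 ± 0.11 (95% interval -0.73 to -0.23), which also did not pass (adjusted p = 0.216 by limma). The call at 10 days did not hold when any 1 of the 6 sham or 10-day rats was left out (adjusted p between 0.0521 and 0.143), while the difference ran from -1.03 to -0.87 over the 9 fits without 1 array. It was also lost with no filter on dim genes (adjusted p = 0.0511) and with all probesets tested (0.0979), and over the 9 settings other than leaving out an array the adjusted p ran from 0.0227 to 0.0979. In the 6 fits without a sham or 10-day rat, 0 to 11 of all genes were called by limma at 10 days, where 103 were called with all rats, and 1805 to 2250 genes had an unadjusted p under 0.05 in them.

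**Figure D1:**
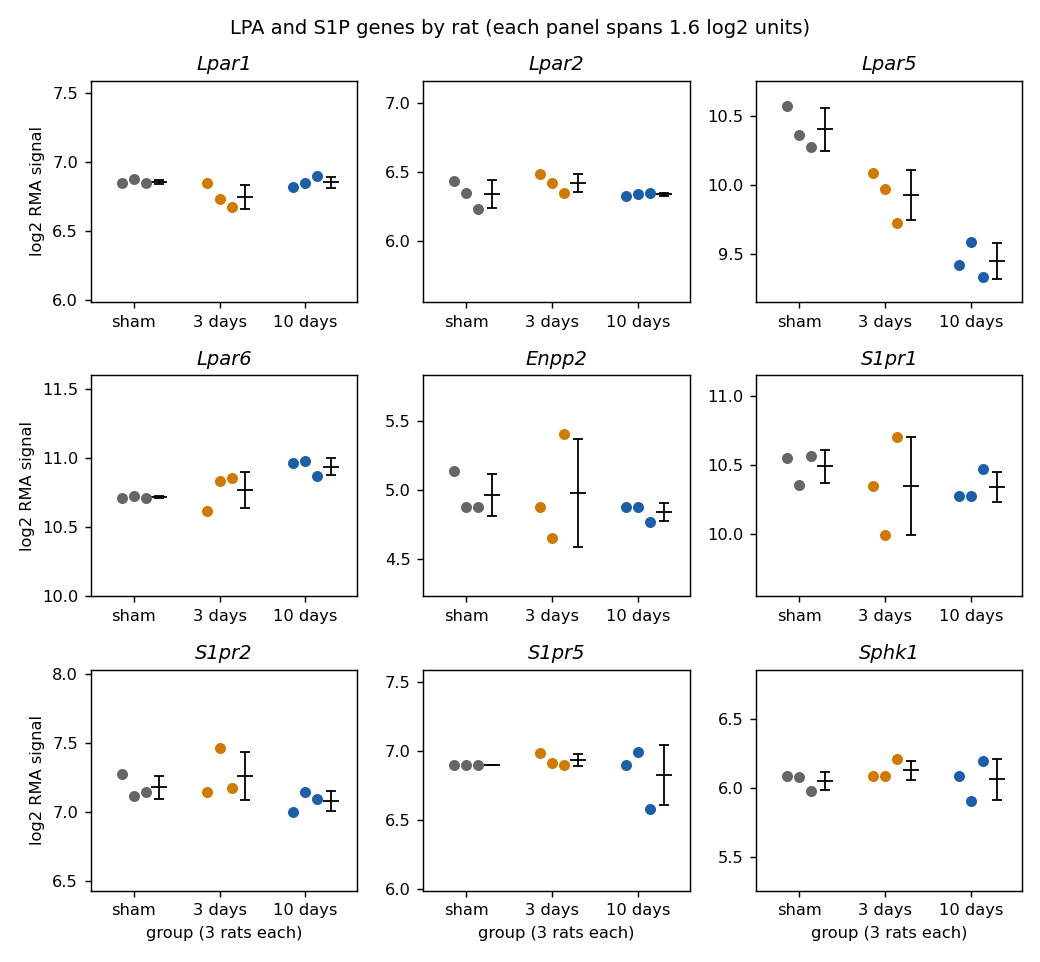
Log2 signal (vertical axis) of each of the 9 genes by group (horizontal axis), with 1 point per rat and the group mean ± SD as black bars; each panel has its own axis of equal span. The 3 groups of Lpar5 points do not overlap, from 10.27 to 10.57 in sham rats down to 9.33 to 9.59 in 10-day rats.

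Lpar6, a receptor for LPA that couples to G proteins of the G12/13 class, was slightly higher at 10 days. Its signals were 10.71, 10.73 and 10.71 in sham rats, 10.62, 10.83 and 10.86 in 3-day rats and 10.97, 10.98 and 10.87 in 10-day rats. The 10-day rats were above all others, and the sham rats lay within a narrow range. The difference of 0.22 ± 0.07 from sham at 10 days (1.16-fold, 95% interval 1.04-fold to 1.30-fold) did not pass (adjusted p = 0.186 by limma). At 3 days it was 0.05 ± 0.07 (adjusted p = 0.809 by limma), and between the days 0.17 ± 0.07 (adjusted p = 0.433 by limma).

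Lpar1, the LPA receptor best known from fibroblasts and the nervous system, had signals of 6.84, 6.87 and 6.84 in sham rats, 6.84, 6.73 and 6.67 in 3-day rats and 6.81, 6.84 and 6.90 in 10-day rats. All groups overlapped, and 4 of the 9 arrays held the same value of 6.84. The differences from sham were -0.11 ± 0.06 at 3 days and -0.0018 ± 0.06 at 10 days, and the 95% intervals of both together ran from -0.24 to 0.14. Lpar2 had signals of 6.44, 6.35 and 6.24 in sham rats, 6.49, 6.43 and 6.35 in 3-day rats and 6.33, 6.35 and 6.35 in 10-day rats. The highest 10-day rat and the lowest 3-day rat both round to 6.35, and the sham rats spanned nearly all of these values. Its intervals against sham ran from -0.07 to 0.23 at 3 days and from -0.15 to 0.15 at 10 days.

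Enpp2, which encodes autotaxin, was dim: its mean of 4.93 lay 0.77 above the level below which genes were not tested (4.16). Its signals were 5.14, 4.88 and 4.88 in sham rats, 4.88, 4.65 and 5.41 in 3-day rats and 4.88, 4.88 and 4.77 in 10-day rats. The lowest and the highest array were both 3-day rats, and 5 of the 9 arrays shared 1 value. The difference from sham was 0.01 ± 0.17 at 3 days and -0.12 ± 0.17 at 10 days, and without 3-day rat 3 the former was -0.20. The intervals, from -0.36 to 0.38 and from -0.49 to 0.25, are the widest of the 9 genes.

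S1pr1, the receptor of lymphocyte exit and of endothelial barrier function, had signals of 10.55, 10.35 and 10.56 in sham rats, 10.34, 9.99 and 10.70 in 3-day rats and 10.28, 10.27 and 10.47 in 10-day rats. Both extremes again came from 3-day rats, and all groups overlapped. The difference from sham was -0.14 ± 0.15 at 3 days (95% interval -0.48 to 0.20) and -0.15 ± 0.15 at 10 days (-0.49 to 0.19), which did not pass (adjusted p = 0.738 and 0.693 by limma). Without 3-day rat 3 the 3-day difference was -0.32, and without 3-day rat 2 it was 0.03. Of 9 endothelial marker genes 6 were tested, with mean signals from 4.77 (Tek) to 6.19 (Oit3), and their mean level was 5.43 to 5.56 in sham rats, 5.38 to 5.55 in 3-day rats and 5.41 to 5.55 in 10-day rats. The median T cell marker differed from sham by -0.37 at 3 days and -0.47 at 10 days, and the part of T cells in the S1pr1 values was not tested.

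S1pr2, a receptor that couples to G12/13 proteins and restrains cell migration, had signals of 7.27, 7.11 and 7.15 in sham rats, 7.15, 7.46 and 7.18 in 3-day rats and 6.998, 7.14 and 7.10 in 10-day rats. The highest 10-day rat, at 7.14, was just below the lowest 3-day rat, at 7.15. The difference between the days was -0.18 ± 0.09 (adjusted p = 0.493 by limma) and was -0.08 without 3-day rat 2. Against sham the differences were 0.08 ± 0.09 and -0.10 ± 0.09 (adjusted p = 0.745 and 0.652 by limma).

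S1pr5, which guides natural killer cells and patrolling monocytes, was at the same value of 6.90 in all 3 sham rats, 3-day rat 3 and 10-day rat 1. The other arrays were at 6.98 and 6.91 at 3 days and 6.995 and 6.58 at 10 days, so that 10-day rat 3 alone stood lower. A tie of any size between arrays occurred in 44.4% of all probesets of these processed data. How many had a tie as large as that of S1pr5 was not counted. With such ties, the SD of 0 among the sham rats is not a measure of how alike the rats were. The difference from sham was 0.03 ± 0.10 at 3 days and -0.08 ± 0.10 at 10 days (adjusted p = 0.926 and 0.755 by limma), and the latter was 0.05 without 10-day rat 3. Sphk1, the kinase that makes S1P near the plasma membrane, had signals of 6.09, 6.08 and 5.97 in sham rats, 6.09, 6.09 and 6.21 in 3-day rats and 6.09, 5.90 and 6.20 in 10-day rats. Its differences from sham were 0.08 ± 0.08 and 0.01 ± 0.08, with 95% intervals of -0.11 to 0.26 and -0.17 to 0.20.

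Besides Lpar5, the groups of Lpar6 did not overlap at 10 days against sham, which makes 2 of the 9 genes, where 21% of all genes tested had no overlap. At 3 days this held for Lpar5 alone, 1 of the 9 against 18.8% of all genes. Between the days it held for Lpar2, Lpar5, Lpar6 and S1pr2, 4 of the 9 against 14.6% of all genes. For the 8 genes other than Lpar5, the 95% intervals against sham stayed between -0.49 and 0.38 at both days. The difference of Lpar5 at 10 days (-0.96) lay outside them. This does not exclude a large difference in every gene. Enpp2 lay only 0.77 above the testing limit of 4.16, where a fall of that size could not show. Enpp2 and S1pr5 shared 1 value in 5 of the 9 arrays, and Lpar1 and Sphk1 in 4.

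**Figure D2:**
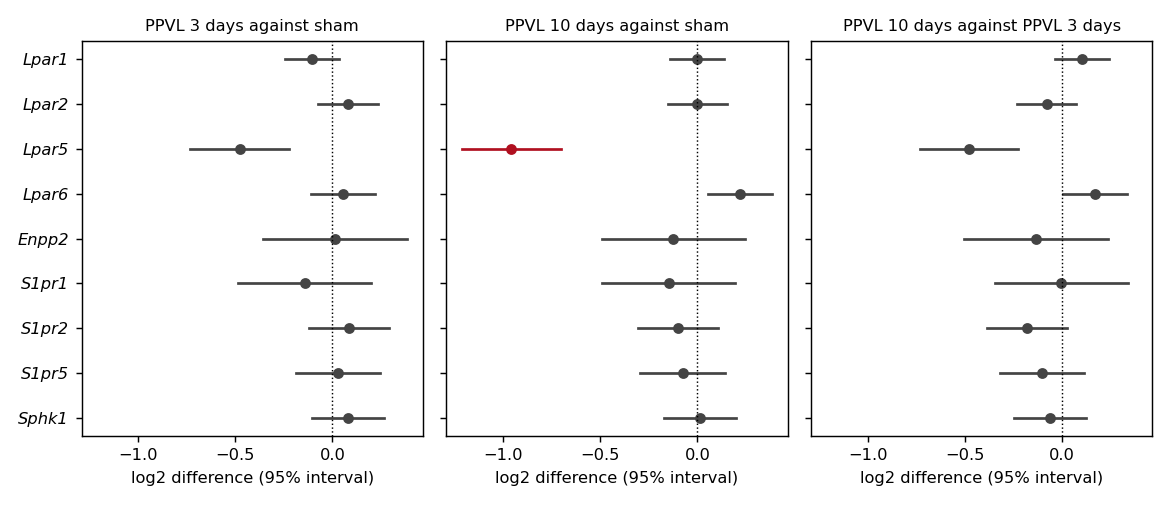
Log2 difference (horizontal axis) of the 9 genes in the 3 comparisons, as a point with its 95% interval from limma; red marks an adjusted p under 0.05. Lpar5 at 10 days against sham (-0.96) is the only red point, and the 3-day and 10-day panels share the sham rats.

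Around these genes, the enzymes that break down LPA and that release and cleave sphingolipids included genes that changed. Of 40 listed genes of the pathway 34 were tested. At 3 days 2 rose and 1 fell, where 2.15% of all genes rose and 0.714% fell. At 10 days 1 rose and 0 fell by limma's test, where 0.492% of all genes rose and 0.243% fell. An unadjusted p under 0.05 in either direction was found for 6 of the 34, and for 2271 of all 14014 genes. The median difference of the 34 genes was 0.0072 at 3 days and -0.0037 at 10 days.

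Asah1, the lysosomal acid ceramidase that releases sphingosine from ceramide, rose at both days. Its signals were 7.54, 7.73 and 7.89 in sham rats, 8.37, 8.55 and 8.50 in 3-day rats and 8.52, 8.31 and 8.48 in 10-day rats. Every PPVL rat was above every sham rat. The rise was 0.76 ± 0.10 at 3 days (1.69-fold, adjusted p = 0.00487 by limma) and 0.72 ± 0.10 at 10 days (1.65-fold, adjusted p = 0.0400 by limma), and the groups differed between the days by -0.04 ± 0.10. The call at 3 days was kept in all 9 fits without 1 array, and that at 10 days in 3 of 9 (adjusted p up to 0.143). Sgpl1, the S1P lyase, was higher by 0.31 ± 0.07 at 3 days (adjusted p = 0.0445 by limma), a call lost in all 9 fits without 1 array (adjusted p up to 0.145), and by 0.26 ± 0.07 at 10 days (adjusted p = 0.104). These were 2 of 9 genes tested among the other S1P enzymes and carriers, which also include Sphk2 and the transporters Spns2 and Mfsd2b.

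Plpp3, a phosphatase that removes LPA and S1P outside cells, fell at 3 days. Its signals were 7.74, 8.10 and 8.27 in sham rats, 7.29, 7.44 and 7.21 in 3-day rats and 7.33, 7.50 and 7.46 in 10-day rats, and no PPVL rat reached the lowest sham rat. The difference was -0.72 ± 0.12 at 3 days (adjusted p = 0.0173 by limma), a call lost in 2 of the 9 fits without 1 array (adjusted p up to 0.0654). At 10 days it was -0.61 ± 0.12, which did not pass (adjusted p = 0.0624 by limma). It was 1 of 6 other LPA enzymes tested, and the remaining ones did not pass.

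Of the 4 LPA and S1P receptors outside the group, 0 passed limma's test at either day, with 1 at an unadjusted p under 0.05 each time. That was S1pr3, with signals of 6.50 to 6.72 in sham rats, 6.89 to 7.41 in 3-day rats and 6.93 to 7.43 in 10-day rats. Its differences were 0.45 ± 0.16 and 0.56 ± 0.16 (adjusted p = 0.181 and 0.119 by limma). None of 10 ceramide and sphingomyelin enzymes passed limma's test at 3 days (3 at an unadjusted p under 0.05) or at 10 days (2). The smallest p among them was that of the sphingomyelin synthase Sgms1 at 3 days (0.33 ± 0.10, adjusted p = 0.139). Nor did any of 5 genes of receptor expression and desensitization pass (0 at an unadjusted p under 0.05 at either day), the smallest p being that of the arrestin Arrb1 at 3 days (-0.16 ± 0.07, adjusted p = 0.328).

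**Figure D3:**
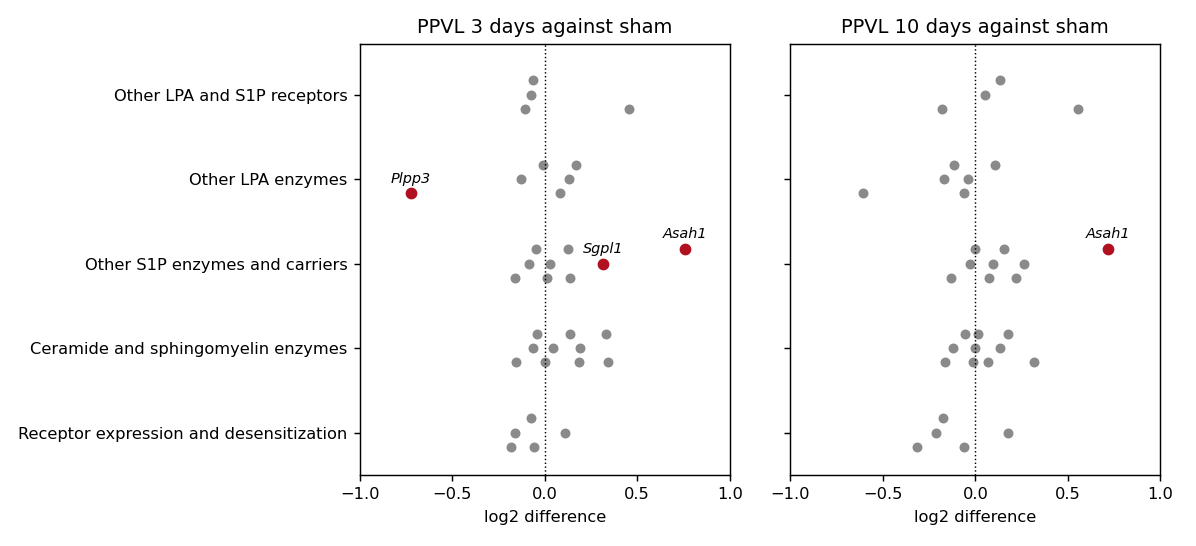
Log2 difference from sham (horizontal axis) at 3 days and at 10 days of the 34 other pathway genes tested, 1 point per gene, in rows by list; red marks an adjusted p under 0.05. Asah1, Sgpl1 and Plpp3 are red at 3 days and Asah1 alone at 10 days.

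Markers of some cell types in the preparation moved with the same comparisons, and in RNA of whole preparations fewer cells of a type and less RNA per cell cannot be told apart. RMA signals have no true zero, so levels are given against the testing limit of 4.16. General macrophage markers had means from 4.77 (Mertk) to 12.85 (Lyz2), whereas the 6 Kupffer cell markers, Clec4f among them, had means from 4.26 to 5.27. The mean level of these 6 was 4.43 to 4.65 in sham rats, 4.60, 4.49 and 5.23 in 3-day rats and 4.67 to 4.71 in 10-day rats. Of the 3-day rats only rat 3 lay above the sham range. That rat was also the highest of all for the macrophage (8.68) and hepatocyte (5.98) lists. None of the 6 Kupffer cell markers passed limma's test at either day, and 2 at 3 days and 1 at 10 days had an unadjusted p under 0.05. The mean level of the 8 macrophage markers was 7.99 to 8.06 in sham rats, 8.25 to 8.68 in 3-day rats and 8.26 to 8.42 in 10-day rats, and Lyz2 passed at 3 days (0.37, adjusted p = 0.0200 by limma, up to 0.0733 without 1 array). Of the 7 tested markers of recruited monocytes 5 rose at 3 days: Fn1 (1.31), Vcan (1.24), Itgam (0.89), Ccr2 (0.85) and S100a4 (0.58), with adjusted p from 0.000929 to 0.0494 by limma. The calls of Ccr2 and S100a4 were lost in 7 and 8 of the 9 fits without 1 array. At 10 days Itgam, the CD11b integrin chain, rose alone of the 7 (0.78, adjusted p = 0.0414 by limma, up to 0.143 without 1 array). From 3 to 10 days Fn1, which encodes fibronectin, fell by 0.78 (adjusted p = 0.0324 by limma). Their mean level was 9.40 to 9.64 in sham rats, 10.28 to 10.43 in 3-day rats and 9.83 to 9.92 in 10-day rats. The part of macrophages and recruited monocytes in the results was not tested.

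The 8 T cell markers were lower in every 10-day rat than in any sham rat, 8 of 8 where 21% of all genes had no overlap. Their mean level was 9.44 to 9.68 in sham rats, 9.08 to 9.41 in 3-day rats and 8.99 to 9.24 in 10-day rats. At 3 days none of the 8 passed limma's test and 6 had an unadjusted p under 0.05, with Cd2 at a difference of 0.19. Cd5, a T cell surface receptor, fell at 10 days (-0.58, adjusted p = 0.0449 by limma, up to 0.159 without 1 array). Of the 8 natural killer cell markers 7 were lower without overlap at 10 days, with a mean level of 9.72 to 9.82 in sham rats, 9.26 to 9.85 in 3-day rats and 9.29 to 9.41 in 10-day rats. None of the 8 passed limma's test at 10 days, and 5 had an unadjusted p under 0.05. Of the 4 tested B cell markers, 4 were higher without overlap at 10 days, with a median difference of 0.54. None of the 4 passed limma's test there, and 4 had an unadjusted p under 0.05. Their mean level was 7.82 to 7.92 in sham rats, 8.11 to 8.57 in 3-day rats and 8.21 to 8.70 in 10-day rats. Vpreb3 rose at 3 days (0.83, adjusted p = 0.0285 by limma, up to 0.101 without 1 array). By gene, T cell markers had means from 7.64 (Cd3d) to 10.62 (Cd28). Those of natural killer cells ran from 6.20 (Klre1) to 11.71 (Prf1) and those of B cells from 6.34 (Vpreb3) to 9.14 (Cd79a). All of these lay well above the testing limit of 4.16, in preparations labelled as macrophages. The part of lymphocytes in the Lpar5, S1pr1 and S1pr5 results was not tested.

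Of the 5 tested dendritic cell markers 2 fell at 3 days, Flt3, a growth factor receptor of dendritic cells (-1.12, adjusted p = 0.0116 by limma), and Clec9a, a lectin of cross-presenting dendritic cells (-0.67, adjusted p = 0.0157, up to 0.0636 without 1 array). Flt3 differed from sham by -0.53 at 10 days, which did not pass. The mean level of the 5 was 6.59 to 6.69 in sham rats, 6.18 to 6.36 in 3-day rats and 6.44 to 6.57 in 10-day rats. Among 6 neutrophil markers Csf3r, the receptor of granulocyte colony-stimulating factor, rose at 3 days (1.04, adjusted p = 0.0326 by limma, up to 0.0978 without 1 array), and their mean level was 6.35 to 7.25 in sham rats, 7.28 to 7.99 in 3-day rats and 6.82 to 7.31 in 10-day rats. No platelet, patrolling monocyte, endothelial, stellate or hepatocyte marker passed limma's test at either day. Of these, 2 of 4, 2 of 6, 1 of 6, 0 of 5 and 0 of 5 had an unadjusted p under 0.05 at 3 days, and 0, 2, 1, 2 and 0 at 10 days. The mean level of the 5 hepatocyte markers in each rat was 5.36 to 5.56 in sham rats, 5.35 to 5.98 in 3-day rats and 5.67 to 5.77 in 10-day rats. That of the 6 patrolling monocyte markers was 9.02 to 9.19, 9.10 to 9.23 and 9.26 to 9.35 in the same order. The part of these cell types in the Lpar5, S1pr5, Plpp3 and Enpp2 results was not tested.

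**Figure D4:**
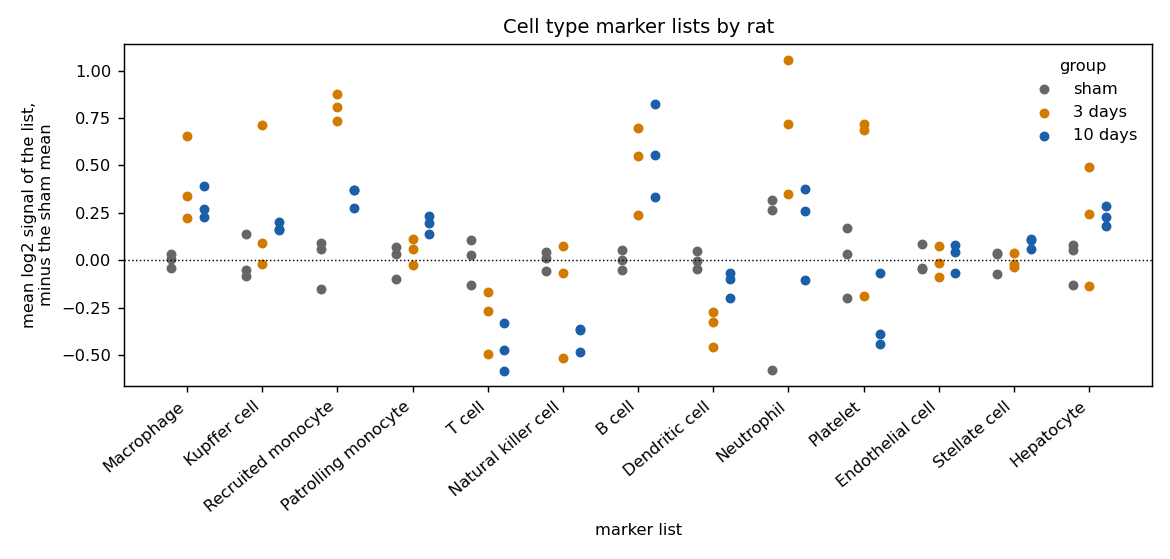
Mean log2 signal of each marker list minus its sham mean (vertical axis) by list (horizontal axis), 1 point per rat. Recruited monocyte markers are highest at 3 days, and T cell and natural killer cell markers are low in the 10-day rats.

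The genes whose course over the 9 arrays was nearest to that of Lpar5 were Dmtn, Gfra3 and Mcam. Nearness was measured as the root mean square distance between log2 signals centred on each gene's mean, and it was 0.16 for Dmtn and Gfra3 and 0.17 for Mcam, where Lpar5 itself deviated from its mean by 0.41. At 10 days Dmtn, which encodes an actin-bundling protein, fell by 0.67, Gfra3, a co-receptor for neurotrophic factors, fell by 0.81, and the adhesion molecule Mcam differed by -0.61 (adjusted p = 0.0449, 0.0400 and 0.0624 by limma). These 3 genes were picked for nearness to Lpar5 over the same arrays. Low values at 10 days follow from that choice and are no further evidence. For Lpar6 the nearest genes were Dapl1, Epb41l2 and Acot6, at distances of 0.05 each, where Lpar6 deviated by 0.12. For S1pr2 they were Zfp866, Ptger2 and Slc39a6, at 0.05 to 0.06, where S1pr2 deviated by 0.12. The adjusted p of these 6 genes by limma ran from 0.0853 to 0.976 over both days.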

How the data were processed

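Per the labels, biotin-labelled cRNA from hepatic macrophages of 9 rats was hybridized to Affymetrix arrays. The authors deposited log2 signals made with RMA in Transcriptome Analysis Console, tools listed in the submitters' processing notes; versions and the genome build are not given in the sources used here. RMA subtracts background, equalizes the arrays' distributions and summarizes probes by median polish, so that shifts shared by all genes are removed. Array medians were 5.21 to 5.26, and pairs of arrays correlated at 0.987 to 0.993. With 3 arrays a group, the number of arrays limits the precision.

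Of 36685 probesets, 18511 carried 1 symbol in the platform annotation, 575 several and 17599 none. The highest-mean probeset stood for a gene, and the 14014 genes whose mean reached 4.16, the 30th percentile over probesets, were tested. limma 3.58.1 in R 4.3.3 was fitted to all 9 arrays with group as the only term, and 2-sided moderated tests were adjusted per comparison with the Benjamini-Hochberg method at a threshold of 0.05. The smallest p of an exact permutation test at this group size is 0.1. The procedure was tested on simulated data. 1 further gene list is not reported here. Of the listed marker and pathway genes, those without a single-symbol probeset or under the filter were not analysed here. Genes named besides the 9 were those of each pathway list past the test, or else the one with the smallest p, markers past the test or defining a cell type, and the 3 genes nearest in course to each of the 3 members with the widest range of group means. Alternatives were other filters, probeset rules, normalization, moderation, array weights, a replicate block, fits of only the groups compared, and leaving out each array. The members and lists were chosen with earlier results of these data known, the fall of Lpar5 at 10 days among them, so that fall is no independent evidence.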

Additional observations from a re-analysis of the deposited data

How the results depend on the processing

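The count of the 9 genes called at 10 days against sham was 1 (Lpar5) and became 0 with no filter on dim genes (Lpar5 adjusted p = 0.0511), with all probesets tested (0.0979) and with the replicate block (0.0749). At 3 days it was 0 and became 1, again Lpar5, with the filter at the 50th percentile (adjusted p = 0.0450), with intensity trend and robust moderation (0.0485) and with the replicate block (0.0403). The filter settings and all probesets differ in how many genes were tested; the cause was otherwise not tested. Over all settings other than leaving out an array, the adjusted p of Lpar5 ran from 0.0227 to 0.0979 at 10 days and from 0.0403 to 0.194 at 3 days, and its difference from -0.96 to -0.90 and from -0.50 to -0.42. Without 1 array the count at 10 days was 0 to 1, and at 3 days and between the days it was 0 in each fit. The labels state no pairing of rats by replicate number. Deviations from the group means correlated by -0.095 to 0.0837 between rats with the same number and by -0.127 to 0.167 between rats with different numbers. Such values over all genes cannot exclude a shared batch for single genes. The replicate block moved the calls of all genes from 401 to 264 at 3 days and from 103 to 0 at 10 days (2163 at an unadjusted p under 0.05). Calls of all genes at 10 days also ranged from 0 (no filter, all probesets, where limma gave 2498 and 4285 at an unadjusted p under 0.05) to 197 (array weights), at 3 days from 107 (all probesets) to 530 (array weights), and between the days from 0 to 11, where 10 were called. Of 240 differences of the 9 genes under 9 other settings, 4 changed sign, with sizes up to 0.0362. Of 243 without 1 array 20 changed sign, with sizes up to 0.201. All of these were of genes not called. With the 50th percentile filter Enpp2 was not tested. Plpp3 kept its call at 3 days in 7 of 9 other settings, Sgpl1 in 5 and Asah1 in 9. The 10-day call of Asah1 was kept in 6 of 9.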
